A study of Mus musculus with 8 samples.

Results

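The cytosolic ribosomal protein genes encode the proteins of the large (60S) and small (40S) subunits of the ribosome. They were chosen by name, as gene symbols of the Rpl and Rps series with Rplp0, Rplp1, Rplp2 and Rpsa, leaving out S6 kinases and pseudogene names ending in -ps, and by level, as a raw CPM (counts scaled by the column total) above 10 in all 8 samples. Of 89 symbols with such a name, 81 passed the level limit, 48 of the large and 33 of the small subunit. They stood among 54658 symbols, of which 14404 were tested. The genome annotation called 78 of the 81 protein-coding. The other 3, *Rps4l*, *Rpl6l* and *Rps3a2*, were annotated as processed pseudogenes, a kind of gene copy made from spliced RNA.

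The data were bulk RNA-Seq of primary articular chondrocytes, the cells of joint cartilage, released with collagenase from the cartilage of the femoral head. The donors were wild-type mice aged 3 weeks. 4 samples were treated with IL-1β, a proinflammatory cytokine, at 1 ng/mL for 24 h, and 4 with vehicle for the same time. All were cultured in high-glucose DMEM with fetal bovine serum. The labels number the replicates but do not say whether these came from separate cultures or animals, so the p-values measure only the spread between these samples, which may be technical.

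Column totals ran from 10992355 to 17456063 counts. All 10 chondrocyte markers tested (among them *Col2a1*, *Acan* and *Col11a2*) were present and were lower with IL-1β, with a median log2 fold change of -1.93. Endothelial and blood markers were under the test filter, 0 of 8 being tested, and *Ptprc*, which marks leukocytes, reached a mean of 0.150 ± 0.195 CPM under IL-1β and 0.107 ± 0.0943 under vehicle (SD, n = 4). Of the 2 leukocyte markers tested, *Cd68* was higher and *Lyz2* lower. Of 4 fibroblast and synovial markers tested, *Prg4* and *Pdgfra* were higher and *Col3a1* lower. *Prg4* does not mark these cells alone, as the study took abundant Prg4 staining in knee sections as a sign of milder osteoarthritis. All 4 bone markers tested (*Ibsp*, *Sp7*, *Bglap* and *Bglap2*) were lower. The part of these shifts in the ribosomal protein values was not tested.

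Each ribosome carries, in general, a single copy of most of its proteins, so cells make them in near-equal amounts, and surplus protein is degraded. Many of their mRNAs begin with a C followed by a run of pyrimidines (C or T in the DNA), the 5′ terminal oligopyrimidine or TOP sequence. Through this sequence the mTORC1 kinase and the protein Larp1 set how strongly these mRNAs are translated. RNA-Seq reads the amount of mRNA and not its translation.

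RefSeq start sites (GRCm38.p6) were matched for 58 of the 81 genes, and where a gene had several starts a match at any of them was counted. The windows that follow run 5′ to 3′ on the gene's strand from 10 bases before to 20 bases after the annotated start, with capitals for a run of a C and at least 4 pyrimidines after it that begins within 5 bases of the start. They are shown for the target of the S6 kinases (*Rps6*), for *Rps18*, *Rplp2* and *Rps27* with the run at the start itself, for the gene with the lowest log2 fold change (*Rpl13a*), and for *Rplp0* and *Rpl37*, which had no such run here.
Rps6, chr4:86857348-86857377, minus strand: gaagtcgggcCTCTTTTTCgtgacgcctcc
Rps18, chr17:33955646-33955675, minus strand: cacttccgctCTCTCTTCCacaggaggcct
Rplp2, chr7:141447641-141447670, plus strand: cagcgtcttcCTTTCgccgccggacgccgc
Rps27, chr3:90213629-90213658, minus strand: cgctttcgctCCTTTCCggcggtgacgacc
Rpl13a, chr7:45128726-45128755, minus strand: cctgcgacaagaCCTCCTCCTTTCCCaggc
Rplp0, chr5:115559457-115559486, plus strand: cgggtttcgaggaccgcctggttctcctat
Rpl37, chr15:5116603-5116632, plus strand: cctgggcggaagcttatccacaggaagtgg
In *Rpl13a* the run of 14 pyrimidines began at base 3. A pyrimidine run at the annotated first base was present in 12 of the 58 genes (20.7%), against 2.61% of 17433 other coding genes and 2.51% of all 32851 promoters in the table. Within 5 bases of the start it was present in 28 (48.3%), against 21.4% of other coding genes and 18.3% of all promoters. Annotated starts can differ from those used in these cells, so a missing run says only that the letters are not at that place.

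Other motifs were searched on both strands from 250 bases before to 50 bases after the start. CCGGAAG was present in 24 of the 58 genes (41.4%), against 12.8% of other coding genes and 8.86% of all promoters. Here and for the pyrimidine runs, shares of genes count a match at any start, while shares of all promoters count each start singly. AAGATGG was found in 17.2% against 7.15% of other coding genes and 6.34% of all promoters, and GGGCGG in 63.8% against 49.2% and 35.7%. TATAAA was in 12.1% against 14.8% and 13.6%, and CACGTG in 10.3% against 8.91% and 7.15%. These are matches of letters, not bound sites.

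Levels were compared between genes per length, as TPM, the counts divided by the listed gene length and scaled to a common total. The median of the 78 protein-coding genes was 914 TPM, and the middle 50% of them lay between 529 and 1547 TPM. Among all symbols, 74 of the 81 were in the top 500 by TPM and 40 in the top 100. *Rplp1*, a protein of the P-stalk that recruits translation factors to the large subunit, was highest, at 14670 TPM. *Rps15* followed at 3877 TPM, *Rpl36* at 3790 TPM, *Rplp0*, the base of the P-stalk, at 3581 TPM, and *Rpl41* at 2800 TPM. The level of *Rplp1* was several-fold above the next gene, whereas *Rps15*, *Rpl36* and *Rplp0* stood close together.

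The 5 lowest were *Rpl22l1* (18.1 TPM), *Rpl6l* (45.4 TPM), *Rps3a2* (45.8 TPM), *Rpl7l1* (73.6 TPM) and *Rpl13a* (95.3 TPM). *Rpl22l1* and *Rpl7l1* are paralogs of other ribosomal proteins, and *Rpl6l* and *Rps3a2* are the pseudogene copies. *Rpl13a* encodes a core protein of the large subunit and stood 77th of 81. 35.4% of its exon bases lie in exons of another annotated gene, and 57.4% of its 50-base windows occur in another gene. The overlapping gene *Gm45713* was listed at 0 counts in every sample. The listed length also mattered, since it was a median of 2.01 times that of the principal coding transcript. Per kilobase of that transcript, *Rplp1* stayed 1st, *Rpl41* was 2nd, *Rps12* 3rd, *Rps15* 4th and *Rplp0* 5th, and *Rpl13a* was again 77th. The orders by both lengths had a Spearman correlation of 0.802 over the 78 genes, which share the same counts.

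**Figure D1:**
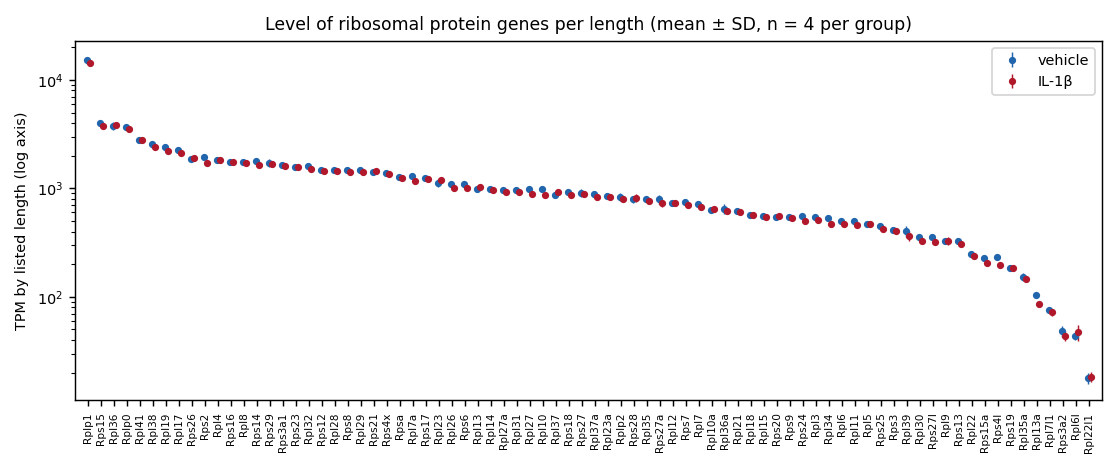
Level of 78 of the 81 ribosomal protein genes in TPM by listed length (log axis), as the mean and SD of 4 vehicle samples (blue) and 4 IL-1β samples (red), in order of mean level. Both groups lie almost on one line from *Rplp1* at 14670 TPM down to *Rpl22l1* at 18.1 TPM.

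The same genes have many copies in the genome, which bears on how exactly their reads can be placed. In the 78 protein-coding genes the median share of 50-base windows that another annotated gene also holds was 50.4%, from 0% to 98.6%, the latter in *Rps27*. 39 genes had more than 50% of their windows shared and 7 had under 10%. Rows named as -ps pseudogenes numbered 298, and together they held only 768 to 1038 CPM per sample. How reads with several places were counted is not given in the sources used here. Counts of genes with near-identical copies are therefore uncertain in level.

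Summed together, the 81 genes held shares of the counts that overlapped between the groups. With IL-1β they took 5.25%, 5.22%, 5.27% and 5.40% of all counts in replicates 1 to 4, a mean of 5.28% ± 0.0786 (SD, n = 4). With vehicle they took 5.39%, 5.38%, 5.25% and 5.24%, a mean of 5.31% ± 0.0797 (SD, n = 4). The groups overlapped, and their means differed by -0.031 percentage points, IL-1β minus vehicle. A single gene symbol, *Gm26917*, held 13.2% to 14.6% of all counts. Its mean share was higher with IL-1β (14.2% ± 0.384) than with vehicle (13.4% ± 0.357). The groups overlapped here too, with vehicle replicate 2 at 13.95% above IL-1β replicate 2 at 13.76%. Which RNA its reads came from was not tested. Without *Gm26917* in the total, the ribosomal protein share was 6.16% ± 0.111 with IL-1β and 6.14% ± 0.108 with vehicle, so the small difference changed sign. Without the 10 genes with the most counts it was larger in the first direction, at 6.75% ± 0.122 with IL-1β and 6.89% ± 0.111 with vehicle, a difference of -0.145 percentage points with overlapping groups. As in any bulk sample, shares and scaled counts cannot tell fewer cells from less RNA per cell.

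The proportion of the subunits overlapped between the groups as well. The summed counts of large subunit genes were 1.48 to 1.51 times those of small subunit genes over the 8 samples. The genes varied together within groups by small amounts. In vehicle replicate 2, 74 of the 81 were above their vehicle mean on the log2 scale, with a median deviation of 0.028. In vehicle replicate 3, 20 of the 81 were, with a median of -0.024. Among IL-1β samples the count above the mean ran from 19 in replicate 2 to 58 in replicate 4. In 308 other genes with listed lengths up to 1132 bases, the median deviation was -0.065 in IL-1β replicate 2 and 0.079 in IL-1β replicate 4. These were the same signs as in the ribosomal protein genes, of which only 18 of the 81 were that short.

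**Figure D2:**
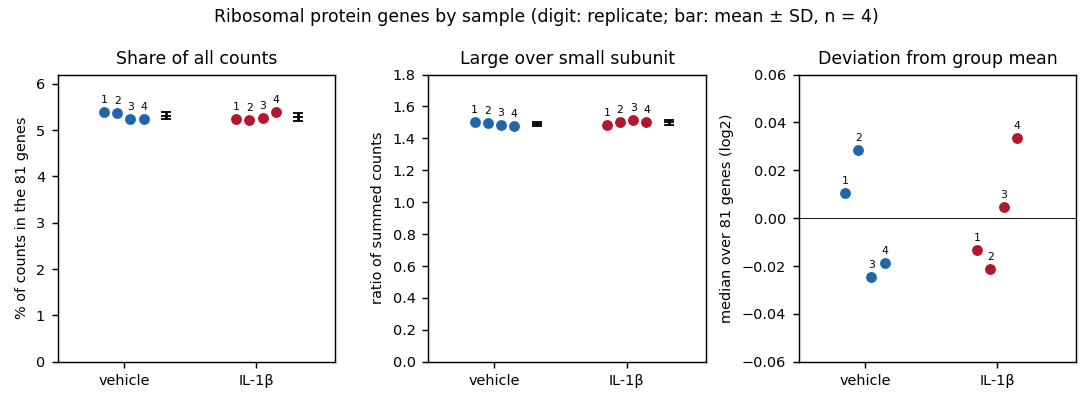
Ribosomal protein genes by sample, with 4 vehicle (blue) and 4 IL-1β (red) samples numbered by replicate and bars for the mean and SD. The share of all counts lies between 5.22% and 5.40% in all samples, the ratio of large to small subunit counts between 1.48 and 1.51, and the median deviation of the 81 genes from their group mean between -0.024 and 0.033 on the log2 scale.

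The comparison of IL-1β with vehicle asked how each gene responded to the cytokine. At an adjusted p under 0.05 in edgeR's quasi-likelihood test, 19 of the 81 ribosomal protein genes (23.5%) changed, 5 upregulated and 14 downregulated. The number upregulated was 11 with 1 factor of unwanted variation (RUVs) and 10 without IL-1β replicate 1, while the number downregulated was 14 in both. The same rule called 40.2% of all 14404 genes tested, 20.4% of them higher and 19.8% lower, and 49.3% of the 8170 genes above 10 CPM in all 8 samples. The difference between these shares was not tested. The median standard error was 0.033 on the log2 scale for the ribosomal protein genes and 0.048 for genes above 10 CPM. All 19 changes were small, between 0.862-fold and 1.11-fold.

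The median log2 fold change (IL-1β over vehicle, TMM-scaled counts) was -0.011 over the 81 genes and -0.0012 over all genes tested. It was -0.011 for the large subunit, where 3 genes rose and 7 fell out of 48, and 0.0039 for the small subunit, where 2 rose and 7 fell out of 33. The middle 50% of the 81 genes lay between -0.051 and 0.033, whereas that of genes above 10 CPM lay between -0.12 and 0.12. No ribosomal protein gene had a log2 fold change beyond 0.25 in size, against 33.6% of all genes tested and 23.1% of those above 10 CPM. The study's methods name a change of more than 2-fold, a log2 fold change beyond 1, while its reported gene set used one beyond 2. At an adjusted p under 0.05 and a log2 fold change beyond 1, edgeR found 0 ribosomal protein genes against 5.21% of all genes. DESeq2 also found none there, its most changed one being 0.214 in size, and 24 of the 81 had an unadjusted edgeR p under 0.05 at any size.

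Since most changes were near 0, their intervals say more than the calls. The 95% interval of the log2 fold change lay within -0.25 and 0.25 for 76 of the 81 genes, taken one gene at a time, and for 4473 of the 8170 genes above 10 CPM. Among the exceptions were *Rpl13a*, *Rps4l*, and the low pseudogene copies *Rps3a2* and *Rpl6l*. Over the protein-coding genes the outermost bounds were 0.816-fold and 1.18-fold. The IL-1β and vehicle samples did not overlap in 16 of the 81 genes, 3 higher and 13 lower, against 36.8% of all genes tested.

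**Figure D3:**
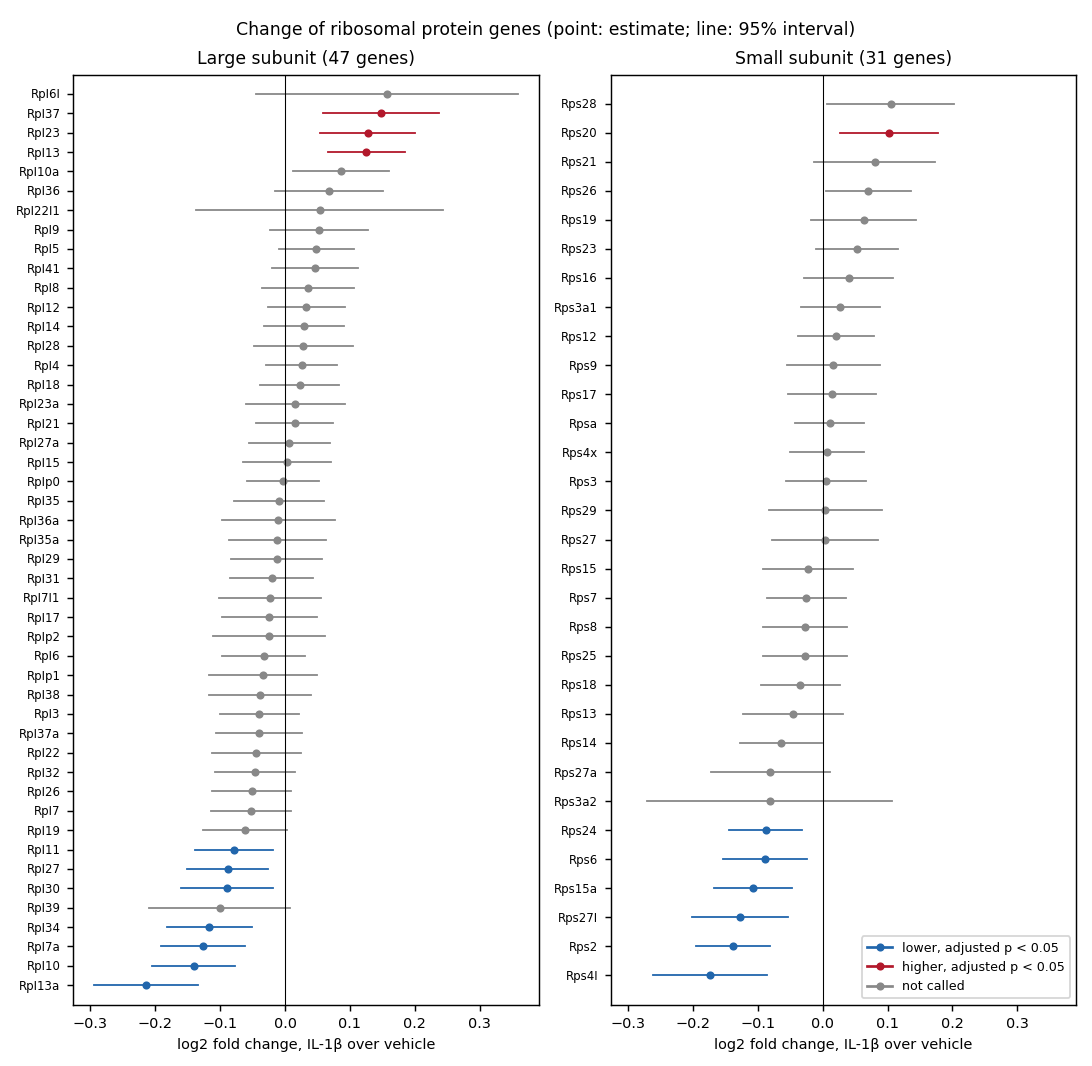
Log2 fold change of ribosomal protein genes, IL-1β over vehicle, with the 95% interval (edgeR, 4 against 4 samples), for 47 large subunit and 31 small subunit genes in order of size. Blue genes fell and red genes rose at an adjusted p under 0.05, and all point estimates lie between -0.21 and 0.16.

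Among the downregulated genes, *Rpl13a* (ENSMUSG00000074129.14; GRCm38 chr7:45125558-45128761, minus strand) had the lowest log2 fold change. Its protein also belongs to a complex that silences translation of inflammatory mRNAs after interferon-γ. It had 65.5, 68.3, 70.1 and 67.2 CPM under IL-1β in replicates 1 to 4 and 77.1, 76.6, 81.1 and 80.5 CPM under vehicle. All 4 treated samples were below all 4 controls (log2 fold change -0.21 ± 0.039 (SE), edgeR adjusted p = 4.96e-05). The part of the exon overlap given above in its values was not tested.

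*Rps2*, near the decoding site of the small subunit, fell from 1289 ± 35.4 to 1172 ± 11.7 CPM (SD, n = 4). *Rpl10*, which joins the large subunit in one of its last maturation steps, fell from 726 ± 29.8 to 658 ± 7.77 CPM. Neither gene's groups overlapped, and the log2 fold changes were -0.14 in both (edgeR adjusted p = 0.000181 and 0.000562). 85.4% of the 50-base windows of *Rpl10* and 71.3% of those of *Rps2* also occur in other genes.

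*Rps4l*, the transcribed copy of *Rps4x*, had 63.5, 68.3, 70.9 and 73.7 CPM under IL-1β and 79.3, 78.3, 79.6 and 75.3 CPM under vehicle. It fell with a log2 fold change of -0.17 ± 0.043 (SE, edgeR adjusted p = 0.00152), and no sample of one group reached the other. *Rps4x* itself, with 819 ± 12.4 CPM under IL-1β and 815 ± 9.30 CPM under vehicle, had a log2 fold change of 0.0066 (95% interval -0.051 to 0.064).

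*Rps6*, the substrate of the S6 kinases downstream of mTORC1, had 590, 589, 597 and 574 CPM under IL-1β and 601, 646, 646 and 607 CPM under vehicle. It fell by 0.089 on the log2 scale (edgeR adjusted p = 0.0254), with the highest treated sample just under the lowest control. *Rpl11* and *Rpl5* form, with the 5S rRNA, the particle that binds Mdm2 when ribosome assembly is disturbed. *Rpl11* was lower, at 455 ± 6.19 CPM under IL-1β against 481 ± 5.34 CPM under vehicle (log2 fold change -0.078, edgeR adjusted p = 0.0339). *Rpl5* had 679 ± 6.80 CPM against 656 ± 7.93 CPM. Its groups did not overlap, but with a log2 fold change of 0.048 it did not pass the test (edgeR adjusted p = 0.189). The calls of *Rps6* and *Rpl11* were not stable: each lost its call when a single sample was left out, *Rps6* in 4 of these 8 fits and *Rpl11* in 6.

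Also downregulated were *Rps27l*, *Rpl7a*, *Rpl34*, *Rps15a*, *Rpl30*, *Rpl27* and *Rps24*, with log2 fold changes between -0.13 and -0.088. *Rpl30*, whose groups overlapped, was called in 13 and *Rpl27* in 14 of the 18 fits run with other settings or samples, the main one included. Among the 7 genes with under 10% of shared 50-base windows, *Rps15a* fell and 2 rose, *Rps20* among them. The share called was 40.2% over all genes tested and 49.3% over those above 10 CPM in all 8 samples, and no difference was tested.

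Among the 5 upregulated genes were *Rpl37*, *Rpl23*, *Rpl13* and *Rps20*. *Rpl13*, of the large subunit, had 979, 973, 1015 and 1028 CPM under IL-1β and 915, 942, 902 and 904 CPM under vehicle, with all treated samples above all controls (log2 fold change 0.13 ± 0.029 (SE), edgeR adjusted p = 0.000838).

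*Rpl23* lies on the face of the large subunit to which the anti-association factor Eif6 binds. It had 752, 776, 761 and 816 CPM under IL-1β and 761, 716, 699 and 667 CPM under vehicle, so that vehicle replicate 1 fell among the treated samples (0.13 ± 0.035, edgeR adjusted p = 0.00464). *Rpl37*, a large subunit protein, had 521, 565, 628 and 619 CPM under IL-1β and 552, 541, 509 and 503 CPM under vehicle. It had the highest called log2 fold change (0.15 ± 0.044, edgeR adjusted p = 0.00712) but overlapping groups, and DESeq2 did not call it (adjusted p = 0.0851). *Rps20* overlapped as well, with 847 ± 58.9 CPM under IL-1β and 789 ± 19.5 CPM under vehicle (0.10, edgeR adjusted p = 0.0279), and it lost its call in 5 of the 8 fits that left out a sample.

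**Figure D4:**
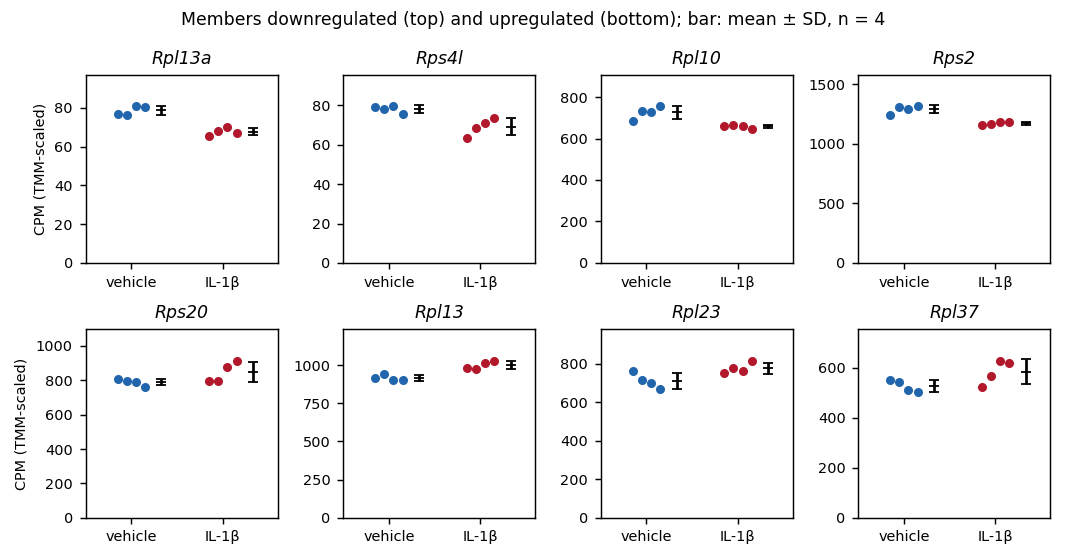
TMM-scaled CPM in each of the 4 vehicle (blue) and 4 IL-1β (red) samples, with mean and SD, for 4 downregulated (top) and 4 upregulated (bottom) ribosomal protein genes at an adjusted p under 0.05. The axes start at 0, so the changes of 0.862-fold (*Rpl13a*) to 1.11-fold (*Rpl37*) are shown at their true size.

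The stalk proteins did not pass the test. *Rplp0* had 2162 ± 61.3 CPM under IL-1β and 2167 ± 47.0 CPM under vehicle, and its log2 fold change of -0.0031 had a 95% interval of -0.058 to 0.052. *Rplp1*, at 2636 ± 219 against 2700 ± 139 CPM, and *Rplp2*, at 612 ± 37.5 against 623 ± 43.3 CPM, had intervals of -0.12 to 0.049 and -0.11 to 0.062. *Rpsa*, also known as the laminin receptor, had 1461 ± 12.9 against 1450 ± 19.3 CPM with an interval of -0.043 to 0.064. *Rps3*, at the mRNA entry of the small subunit, had 666 ± 15.5 against 663 ± 15.0 CPM with an interval of -0.056 to 0.067. *Rps18* had a log2 fold change of -0.035 (95% interval -0.095 to 0.026), and *Rps27a*, made as a fusion with ubiquitin, had -0.081 (-0.17 to 0.011).

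Paralogs were far below their partners per length, except for *Rps27l*. *Rps27l* is a target of p53 in other cells. It had 36.2% ± 1.18 of the TPM of *Rps27* with IL-1β and 39.8% ± 3.48 with vehicle (SD, n = 4). Other genes also hold 98.6% of the 50-base windows of *Rps27* and 22.4% of those of *Rps27l*, so this ratio is uncertain. *Rps27l* fell (log2 fold change -0.13 ± 0.036 (SE), edgeR adjusted p = 0.00545) and *Rps27* had 0.0039 (95% interval -0.078 to 0.085). Whether the paralog and its partner differed in their response was not tested. *Rpl22l1* stood at 7.73% ± 0.498 of *Rpl22* with IL-1β and 7.17% ± 0.814 with vehicle, and *Rpl7l1* at 10.7% ± 0.355 and 10.5% ± 0.512 of *Rpl7*. None of *Rpl22l1*, *Rpl22*, *Rpl7l1* and *Rpl7* passed the test, nor did *Rpl39* and *Rpl36a*.

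Members and names close to the level limit of 10 CPM were few. The lowest 2 inside were *Rpl22l1*, with at least 10.8 raw CPM in every sample, and *Rps3a2*, with at least 11.8. Just outside were *Rps10*, from 8.42 to 11.6 raw CPM, and the pseudogene *Rps3a3*, from 8.22 to 12.2, each with 1 of 8 samples above 10. *Rpl32l* had 6.55 to 9.15 and *Rpl39l* 4.21 to 5.94 raw CPM. *Rpl24* had 0.991 to 1.96 raw CPM, and *Rpl3l*, the muscle paralog of *Rpl3*, 0.0716 to 0.234. *Rpl10l* and *Rps12l1* were listed at 0 counts in every sample. *Rpl24* and *Rps10* encode proteins of every cytosolic ribosome. 47.0% of the exon bases of *Rpl24* and 28.7% of those of *Rps10* lie in exons of another annotated gene, and 81.7% and 56.8% of their 50-base windows occur elsewhere. The part of this overlap in their low counts was not tested.

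Of the genes with a pyrimidine run within 5 bases of the start, 8 of 28 fell and 0 rose. Of the 30 matched genes without one, 3 fell and 3 rose. Their median log2 fold changes were -0.016 and 0.0059. Of the 12 genes with a run at the annotated first base, 2 fell and 0 rose, with a median of -0.010. Genes with an annotated small nucleolar RNA within them, which guide chemical modification of rRNA, were 30 of the 81: 6 of these fell and 4 rose, against 8 and 1 of the other 51. Over all genes tested, 19.8% were called lower and 20.4% higher. None of these differences was tested.

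4 further proteins of the 80S ribosome or its surface have names outside the Rpl and Rps series or stood below the level limit. At an adjusted p under 0.05 in edgeR's test, 1 of them rose and 1 fell, and 3 are described here. *Fau*, which encodes the small subunit protein eS30 fused to a ubiquitin-like protein, rose. It had 521, 526, 565 and 549 CPM under IL-1β and 482, 474, 469 and 458 CPM under vehicle, a larger change than any of the 81 in the upward direction (log2 fold change 0.20 ± 0.032 (SE), edgeR adjusted p = 9.07e-06). *Rack1*, a signaling scaffold on the small subunit, had -0.011 (95% interval -0.076 to 0.055), and *Rpl36al*, at about 2 CPM, had -0.33 (-0.73 to 0.073).

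Genes that act with the ribosomal proteins were described from lists set by name. Of the other mRNAs known for a TOP sequence, 4 of 17 rose and 6 fell, a called share of 58.8%. The share was 40.2% over all genes tested and 49.3% over those above 10 CPM in all 8 samples. *Pabpc1*, the poly(A)-binding protein, rose from 1505 ± 49.9 to 2257 ± 109 CPM (log2 fold change 0.58 ± 0.032 (SE), edgeR adjusted p = 3.24e-15), whereas *Hnrnpa1* (-0.26) and *Vim* (-0.29) fell. *Eef1a1*, the main elongation factor, had -0.0086 (95% interval -0.055 to 0.038) at 6731 ± 134 CPM under IL-1β. The median of this list was -0.043.

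Of 13 genes of mTORC1 and TOP control, 3 rose and 4 fell, a called share of 53.8% beside 40.2% of all genes tested. *Deptor*, an inhibitor of mTOR, fell to 41.9 ± 1.01 from 84.2 ± 1.96 CPM (95% interval of the log2 fold change -1.09 to -0.92, edgeR adjusted p = 2.65e-18). *Eif4ebp1*, a translation repressor that mTORC1 inactivates, rose by a log2 fold change of 0.21 and *Mtor* by 0.19. *Larp1*, which binds the TOP sequence, fell (-0.15, edgeR adjusted p = 0.000226).

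Assembly factors were mostly on the lower side. Of 22 small subunit assembly genes, 0 rose and 15 fell, with a median log2 fold change of -0.17. *Nop56*, a core protein of the particles that methylate rRNA, had 163, 156, 157 and 150 CPM under IL-1β and 193, 197, 191 and 196 CPM under vehicle (-0.32 ± 0.031 (SE), edgeR adjusted p = 1.26e-09). *Ltv1*, which acts late in small subunit maturation, fell by 0.35 on the log2 scale and *Wdr43*, of the early processing complex, by 0.24.

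Of 24 large subunit assembly genes tested, 13 fell and 1 rose, with a median of -0.11. *Heatr3*, which carries Rpl5 into the nucleus, fell by 0.26 on the log2 scale and *Wdr12* by 0.23. The riser was *Eif6*, which keeps the large subunit from joining the small one and binds where *Rpl23* lies. It had 178, 181, 182 and 176 CPM under IL-1β and 140, 142, 141 and 143 CPM under vehicle (0.34 ± 0.028, edgeR adjusted p = 4.55e-11). The share of genes called was 68.2% in the small subunit list and 58.3% in the large subunit list. It was 23.5% in the ribosomal protein genes, 40.2% in all genes tested and 49.3% in genes above 10 CPM in all 8 samples. The assembly lists are small and their difference from the ribosomal protein genes or the other genes was not tested.

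Of 14 genes for rRNA transcription 1 rose and 4 fell (median -0.10), a called share of 35.7% beside 40.2% of all genes tested. *Rrn3*, *Myc* and *Ubtf* were each lower by 0.12 to 0.16 on the log2 scale. Of the 4 proteins of rRNA pseudouridylation only *Dkc1* was called, and it fell by 0.25. Of 11 genes of ribosome rescue and collision tested 2 rose, *Edf1* the most (0.27), and 2 fell, *Abce1* (-0.17) and *Ltn1* (-0.15). The called share of that list was 36.4%. Mitochondrial ribosomal protein genes, which serve a separate ribosome, were called in 22.1% of 77 genes, 4 higher and 13 lower, a share close to the 23.5% of the cytosolic genes. Their middle 50% lay between -0.12 and 0.039 with a median of -0.050. Their median standard error was 0.058 on the log2 scale, against 0.033 for the cytosolic genes. A log2 fold change beyond 0.25 in size was found in 5.19% of the mitochondrial and 0% of the cytosolic genes.

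Some ribosomal protein genes serve as references in qPCR. Of 12 usual reference genes, 3 rose and 2 fell, a called share of 41.7% beside 40.2% of all genes tested. *Gapdh* had a log2 fold change of 0.54, *B2m* 0.55 and *Actb* -0.36, all called, and *Rpl13a* -0.21, also called. *Rplp0* at -0.0031 and *Rps18* at -0.035 were not called. The samples of *Rplp0* ran from 2083 to 2231 CPM over both groups.

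**Figure D5:**
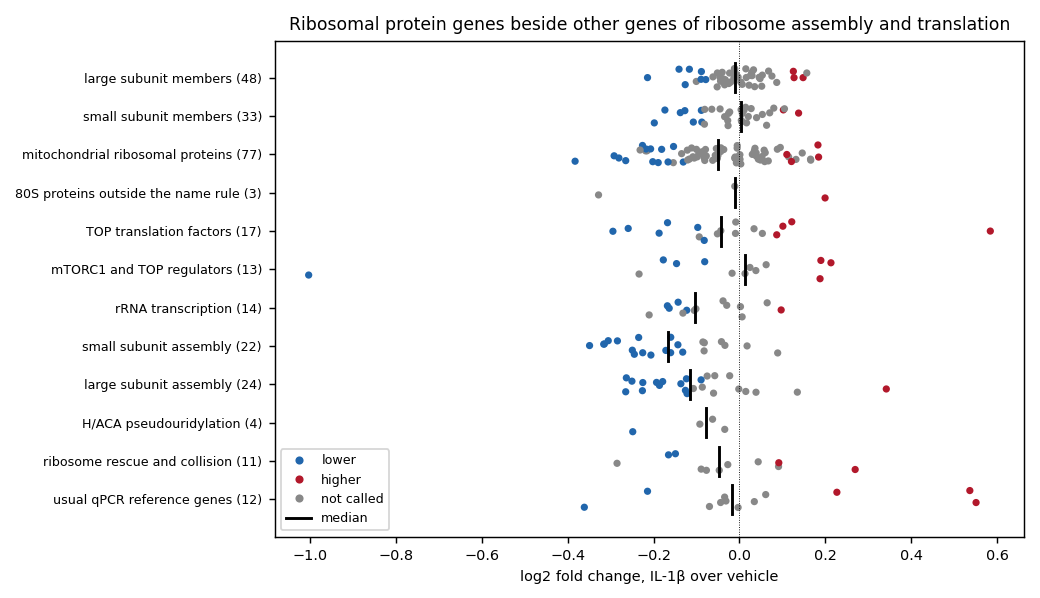
Log2 fold change, IL-1β over vehicle, of each tested gene in the ribosomal protein lists and in other lists of ribosome assembly and translation, with the number of genes in brackets and the median as a black bar. Blue points fell and red points rose at an adjusted p under 0.05. Genes not reported here by name are left out of the lists other than the ribosomal protein lists. The medians of the large and small subunit genes are -0.011 and 0.0039, and those of the small and large subunit assembly lists are -0.17 and -0.11.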

How the data were processed

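RNA-Seq counts of 4 IL-1β and 4 vehicle samples were analysed, all from 1 table. Per the methods and the submitters' processing notes, reads were trimmed (cutadapt), mapped to the mm10 genome and GENCODE vM20 annotation (STAR; 2.4.2a in the notes, another version in the methods) and assigned to genes (featureCounts of Subread). The table the authors deposited holds these counts as whole numbers per symbol, unscaled, beside a listed gene length in bases. The methods name a batch correction with RUVseq; whether it precedes these counts, the strand setting and the library kit are not given in the sources used here. The qPCR and miRNA data and other experiments were not analysed here.

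Genes with CPM above 1 in at least 4 samples were tested with edgeR 4.0.16 (quasi-likelihood, TMM factors, treatment as the only term), Benjamini-Hochberg adjusted over all 14404. Printed CPM are TMM-scaled unless called raw. TPM divide counts by the listed length. The code was tested on simulated data. Annotation was GENCODE vM21 on GRCm38, a release other than the authors', and promoters were RefSeq. The precision depends on the depth of 10992355 to 17456063 counts per sample and on the spread between samples. No pair of samples of a group agreed within sampling noise: chi-square per degree of freedom was at least 1.98. The members and gene lists were chosen with earlier results of these data known.

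Named were the members with the 5 highest and 5 lowest TPM, the 5 highest and 5 lowest called log2 fold changes, the stalk proteins, *Rpsa*, paralog pairs, 8 genes of known role, those next to the level limit and those with a sample apart, and in each list up to 3 genes with the lowest adjusted p. *Rpl34*, *Rps15a*, *Rpl7a*, *Rpl27*, *Rpl30*, *Rps24*, *Rps12*, *Larp1*, *Eef1a1*, *Ptprc*, *Bglap2* and the low names outside the limit were added after their values were seen. A few genes are counted in the totals but not reported here by name. Alternatives were other scaling, filters and tools, a replicate block, RUVs, pseudogene rows added to parents, centring by length and each sample left out.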

Additional observations from a re-analysis of the deposited data

Results flagged for a closer look

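In 3 of 162 groups of 4 samples compared (78 ribosomal protein genes in each treatment, with their summed share, the subunit ratio and the library totals), 1 sample stood apart by Dixon's ratio, which chance gives in about 1 of 20 groups. In vehicle replicate 1 *Rps9* was at 518 CPM, above the 477 to 484 CPM of the other vehicle samples. In vehicle replicate 3 *Rps13* was at 303 CPM, below 318 to 321 CPM in the rest, and in IL-1β replicate 1 *Rpl3* was at 582 CPM, below 601 to 605 CPM. None of the 3 genes was called between treatments, and their log2 fold changes were 0.017, -0.045 and -0.039.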

How the results depend on the processing

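The number of ribosomal protein genes called lower was 14 in every fit with all 8 samples and the number called higher 4 to 6, except that 11 were called higher with 1 factor of unwanted variation (RUVs). With single samples left out they ran from 10 to 14 lower and from 4 to 10 higher, the 10 without IL-1β replicate 1. The replicate block gave 5 higher and 14 lower, the same 19 genes. Correlations of same-numbered samples' deviations ran from -0.070 to 0.042, and those of other pairs from -0.085 to 0.091. No pairing by number was seen in these values, but whether same-numbered samples shared a culture or animal was not tested. A log2 fold change beyond 1 as well left 0 higher and 0 lower, and the 7 genes with few shared windows gave 2 higher and 1 lower, as fewer genes were counted. Over all 18 fits 10 genes were lower and 3 higher each time, and no log2 fold change exceeded 0.237 in size. The median of all 81 stayed between -0.021 and 0.0083 with a sample left out. That of the small subunit ranged from -0.024 to 0.012 in the same fits, and that of the large subunit from -0.024 to 0.0077. The difference in share of counts was -0.145 percentage points without the 10 genes with the most counts (6.75% ± 0.122 with IL-1β and 6.89% ± 0.111 with vehicle), and -0.068 to -0.0051 with a sample left out. The ratio of upper to lower quartile level was 2.92 by listed length and 2.13 by principal transcript. Of 630 values of 35 named genes under alternatives, 17 lost a call, 6 gained 1 and none of the called changed direction. The causes were not tested.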
